A study of Arabidopsis thaliana with 12 samples.

Results

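Of the 38088 loci in the expression table, 57 were nuclear genes of cytosolic ribosomal proteins, taken by locus identifier from a list of small-subunit (RPS), large-subunit (RPL) and stalk (RPP) genes. They comprised 22 small-subunit and 35 large-subunit genes and encode 34 proteins, 20 of them from more than 1 of the listed genes. The gene names follow the usual Arabidopsis nomenclature, and the annotation used here gave the paralogue letter for 20 of the 57. Whole Arabidopsis thaliana seedlings were sequenced in 4 groups of 3 libraries: dcp5-1 after 60 min in 150 mM NaCl, dcp5-1 at 0 min, Col-0 after 60 min in 150 mM NaCl, and Col-0 at 0 min. The dcp5-1 line carries a mutant allele of DCP5, an mRNA decapping factor of processing bodies, and Col-0 is the wild-type accession. All seedlings were 5 days old, had been germinated on MS agar at 22 °C under 16 h light and 8 h dark after 3 days at 4 °C, and were rested in liquid MS medium for 30 min. The design asks what hyperosmotic salt does to the transcriptome in each genotype. No sample kept for 60 min without salt was analysed here, so salt and the added time in liquid cannot be told apart.

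Cytosolic ribosomes are built in the nucleolus from ribosomal RNA and about equal amounts of each ribosomal protein, and their genes are among the most strongly transcribed in growing tissue. In Arabidopsis each protein is encoded by a small family of paralogues, and mutants of single paralogues often show pointed leaves or altered leaf polarity. Short promoter elements called site II motifs and telo boxes are known from these genes, and plant ribosomal protein output is linked to growth signalling through the TOR kinase.

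Values were FPKM, which scale reads by the length of the transcript and the size of the library, and so are relative to all other transcripts in a library. In these bulk samples, fewer cells of a type and less RNA per cell cannot be told apart. From the step size of low values, depth was estimated at 14600000 to 21100000 reads per library, lowest in Col-0 at 0 min. DCP5 (AT1G26110) read 20.2 to 20.7 FPKM in dcp5-1 at 60 min, 12.96 to 13.2 in dcp5-1 at 0 min, 76.6 to 84.9 in Col-0 at 60 min and 48.5 to 52.1 in Col-0 at 0 min, so the genotype labels held in all 12 libraries. All 6 markers checked, 3 of shoot and 3 of root, were above 6 FPKM in every library. Replicate 2 of Col-0 at 0 min stood apart: its squared differences from replicates 1 and 3 averaged 9.58 and 5.31 times the counting variance, against 1.78 to 3.32 for the other replicate pairs. The labels do not say that replicates were separate cultures, so p-values cover variation among these libraries alone, possibly technical in part.

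All 57 genes were above 0 in every library and passed the minimum mean of 1 FPKM. Mean levels over the 12 libraries ran from 3.04 FPKM for RPP0A to 1128 FPKM for RPL18aB, with a median of 378; 49 genes were above 100 FPKM and 6 below 50. The highest was RPL18aB (AT2G34480), which had 887, 951 and 929 FPKM in dcp5-1 at 60 min and 1418, 1502 and 1435 in dcp5-1 at 0 min. Col-0 had 646, 666 and 602 FPKM at 60 min and 1258, 1707 and 1533 at 0 min. Next came RPL28A (AT2G19730) with a mean of 840 FPKM, RPS8A (AT5G20290) with 837, RPL10A (AT1G14320) with 817 and RPS21B (AT3G53890) with 774. The 6 genes below 50 FPKM were the minor paralogues RPP0A (AT2G40010), RPSaB (AT3G04770), RPL3B (AT1G61580), RPL10B (AT1G26910), RPP0C (AT3G11250) and RPS9C (AT5G39850), each with a far more abundant sister gene. RPP0A rested on an estimated 41 to 89 reads per library, so its values were the least precise.

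Summed over the 57 genes, ribosomal protein transcripts read lower after salt in both genotypes, and at 60 min they read higher in dcp5-1 than in Col-0. The sum was 18865, 19642 and 19979 FPKM in dcp5-1 at 60 min and 27079, 27733 and 27827 in dcp5-1 at 0 min. In Col-0 it was 13958, 14309 and 13456 at 60 min and 24750, 32950 and 28041 at 0 min. The salt and no-salt libraries did not overlap in either genotype, and at 60 min every dcp5-1 library lay above every Col-0 library, whereas at 0 min the 3 dcp5-1 sums fell inside the Col-0 range. As a share of the summed FPKM of all tested nuclear protein-coding genes, the members made up 1.73%, 2.28% and 1.92% in dcp5-1 at 60 min and 2.62%, 2.68% and 2.37% in dcp5-1 at 0 min. In Col-0 the share was 1.76%, 1.57% and 1.72% at 60 min and 2.24%, 2.49% and 2.34% at 0 min. By share the 60 min libraries were again below the 0 min libraries of each genotype, but the genotypes overlapped at both times, and at 60 min had group means of 1.98% ± 0.28 in dcp5-1 and 1.68% ± 0.10 in Col-0 (SD, n = 3 each). Both subunits shifted in the same direction. The ratio of the small-subunit sum to the large-subunit sum averaged 0.743 ± 0.012 in dcp5-1 at 60 min, 0.788 ± 0.011 in dcp5-1 at 0 min, 0.787 ± 0.015 in Col-0 at 60 min and 0.785 ± 0.022 in Col-0 at 0 min (SD, n = 3 each). The 3 dcp5-1 libraries at 60 min, at 0.730 to 0.751, were below all other libraries, at 0.770 to 0.810. The median SD of a gene's log2 value within a group was 0.051 in dcp5-1 at 60 min, 0.044 in dcp5-1 at 0 min, 0.062 in Col-0 at 60 min and 0.22 in Col-0 at 0 min, so Col-0 at 0 min was the least precise group.

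**Figure D1:**
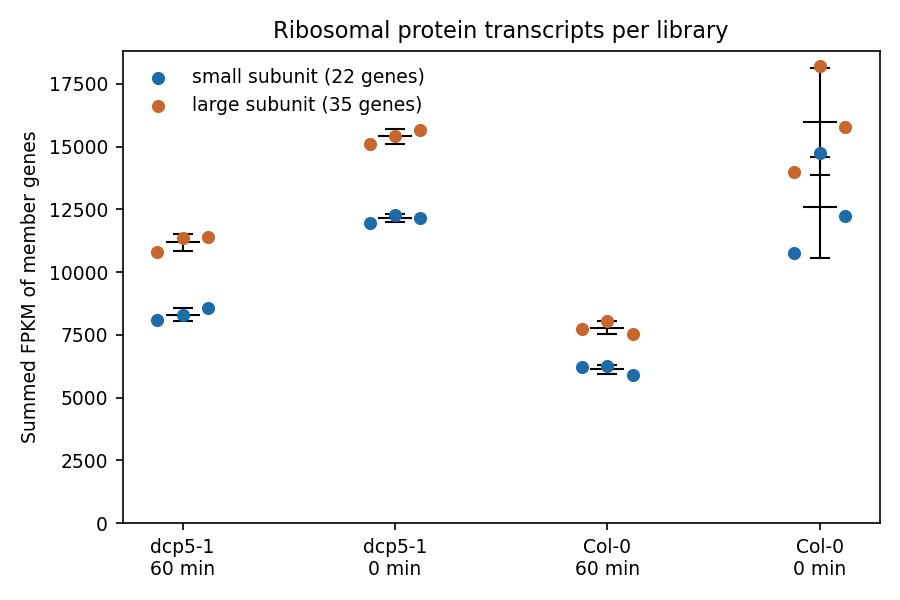
Summed FPKM of the 22 small-subunit and 35 large-subunit genes in each library (points), with group means and SD (bars; n = 3 per group). The 60 min libraries lie below the 0 min libraries of the same genotype, and Col-0 at 0 min has the widest spread, 24750 to 32950 FPKM for both subunits together.

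In Col-0, 53 of the 57 genes fell after 60 min of salt and 4 were not called, by limma on log2(FPKM + 1) with Benjamini-Hochberg adjustment over the 19876 loci tested (adjusted p below 0.05). Of all loci tested, 35.7% were called lower and 36.3% higher. All 57 fold changes were below 0, with a median log2 fold change of -0.86 (range -2.20 to -0.03) against 0.01 for all loci. In dcp5-1, 40 genes fell, 3 rose and 14 were not called, against 31.6% of all loci lower and 35.1% higher; the members' median was -0.39 (range -1.70 to 0.44) against 0.02. Each gene's spread in this fit was pooled over all 12 libraries. A fit of only the dcp5-1 libraries called 47 genes lower and 4 higher, with 6 not called. It called 6515 of 19876 loci lower and 7096 higher. A fit of only the Col-0 libraries called 52 genes lower, against 6716 of 19876 loci. The counts also depended on the scaling between libraries. With quantile normalization, 35 genes were called lower and 11 higher in Col-0, with a median of -0.26, against 6382 and 7687 of all loci. In dcp5-1, 25 were lower and 17 higher, with a median of -0.04, against 6061 and 7070 of all loci. Without replicate 2 of Col-0 at 0 min, 53 genes were lower in Col-0, with a median of -0.75, against 6867 of 19876 loci lower.

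All 22 small-subunit genes fell in Col-0, with a median log2 fold change of -0.98, and 17 of them fell in dcp5-1, with a median of -0.51. RPS15aA (AT1G07770), a core protein of the small subunit, fell most: it had 287, 289 and 294 FPKM in dcp5-1 at 60 min and 958, 936 and 944 in dcp5-1 at 0 min. The Col-0 values were 235, 216 and 221 FPKM at 60 min and 922, 1240 and 960 at 0 min. Its log2 fold change was -1.70 ± 0.09 (SE; adjusted p = 1.76e-08, limma) in dcp5-1 and -2.20 ± 0.09 (adjusted p = 1.63e-09, limma) in Col-0. RPS8A, one of the most abundant members, had 732, 756 and 779 FPKM in dcp5-1 at 60 min and 990, 1011 and 972 in dcp5-1 at 0 min. In Col-0 libraries it read 587, 577 and 555 FPKM at 60 min and 912, 1176 and 997 at 0 min. It fell in both genotypes, with log2 fold changes of -0.39 ± 0.08 in dcp5-1 and -0.83 ± 0.08 in Col-0 (adjusted p = 0.0011 and 1.93e-06, limma), although quantile normalization turned both values to slightly above 0. The small-subunit genes not called in dcp5-1 included RPS6A (AT4G31700) and RPS6B (AT5G10360), whose protein is the target of S6 kinase. The others were RPS3aA (AT3G04840), RPS4D (AT5G58420) and RPSaA (AT1G72370). In dcp5-1 all 60 min libraries of RPS6A and RPS4D still lay below the 0 min libraries, and those of RPS3aA lay above.

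Of the 35 large-subunit genes, 31 fell in Col-0, with a median log2 fold change of -0.79, and 23 fell and 3 rose in dcp5-1, with a median of -0.33. RPL38B (AT3G59540), which encodes one of the smallest ribosomal proteins, had 287, 306 and 326 FPKM in dcp5-1 at 60 min and 704, 762 and 852 in dcp5-1 at 0 min. For Col-0 the table gave 213, 240 and 196 FPKM at 60 min and 778, 962 and 844 at 0 min. Its log2 fold change was -1.33 ± 0.10 in dcp5-1 and -1.99 ± 0.10 in Col-0 (adjusted p = 3.24e-07 and 8.11e-09, limma). The log2 fold change of RPL18aB was -0.65 ± 0.10 in dcp5-1 and -1.22 ± 0.10 in Col-0 (adjusted p = 8.35e-05 and 3.24e-07, limma). RPL28A had 582, 678 and 647 FPKM in dcp5-1 at 60 min and 1008, 1122 and 1119 in dcp5-1 at 0 min. Col-0 had 426, 463 and 422 FPKM at 60 min and 1066, 1407 and 1144 at 0 min. The large-subunit genes not called in dcp5-1 were RPL5A (AT3G25520) and RPL5B (AT5G39740), whose protein carries the smallest ribosomal RNA into the large subunit, RPL24A (AT2G36620) and RPL24B (AT3G53020), the second known for translation reinitiation, RPL27aC (AT1G70600), RPL3B, RPL9C (AT1G33140), RPP0B (AT3G09200) and RPP0C. For RPL38B, RPL18aB and RPL28A the 60 min libraries lay below all 0 min libraries of the same genotype. In dcp5-1 this also held for RPL5B, RPL24A, RPL24B, RPL9C and RPP0B, although they were not called. The dcp5-1 libraries of RPL3B were all higher at 60 min than at 0 min.

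The L4 genes were not called lower in either genotype. RPL4A (AT3G09630) and RPL4D (AT5G02870) encode L4, a protein that lines the peptide exit tunnel. RPL4A had 189, 189 and 196 FPKM in dcp5-1 at 60 min and 146, 141 and 135 in dcp5-1 at 0 min. The Col-0 values were 135, 136 and 132 FPKM at 60 min and 115, 162 and 140 at 0 min. In dcp5-1 it rose by 0.44 ± 0.09 on the log2 scale (adjusted p = 0.0015, limma) with no overlap between libraries, while in Col-0 the change was -0.03 ± 0.09 (adjusted p = 0.775, limma) and the libraries overlapped. RPL4D had 187, 191 and 179 FPKM in dcp5-1 at 60 min and 148, 142 and 134 in dcp5-1 at 0 min. In Col-0 libraries it read 110, 123 and 114 FPKM at 60 min and 99.4, 145 and 128 at 0 min. It likewise rose in dcp5-1, by 0.39 ± 0.11 (adjusted p = 0.00749, limma), and changed by -0.09 ± 0.11 in Col-0 (adjusted p = 0.492, limma).

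RPL3A (AT1G43170) encodes L3, which reaches toward the peptidyl transferase centre. It had 230, 222 and 236 FPKM in dcp5-1 at 60 min and 195, 188 and 184 in dcp5-1 at 0 min. For Col-0 the table gave 170, 167 and 169 FPKM at 60 min and 191, 254 and 217 at 0 min. It rose in dcp5-1 (0.28 ± 0.08, adjusted p = 0.0104, limma) and fell in Col-0 (-0.38 ± 0.08, adjusted p = 0.00124, limma). With quantile normalization RPL4A, RPL4D and RPL3A had positive log2 fold changes in Col-0 too. The remaining members not called in Col-0 were RPL3B and RPL9C. RPL9C, from the PIGGYBACK genes named for leaf polarity mutants, had 306, 378 and 250 FPKM in dcp5-1 at 60 min and 408, 388 and 405 in dcp5-1 at 0 min. Col-0 had 153, 251 and 227 FPKM at 60 min and 200, 342 and 432 at 0 min. It was the most variable member in 3 of the 4 groups, and 76.3% of its coding sequence in stretches of 50 bases is identical to AT1G33120, so its reads may have been shared between the copies and its values are uncertain.

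**Figure D2:**
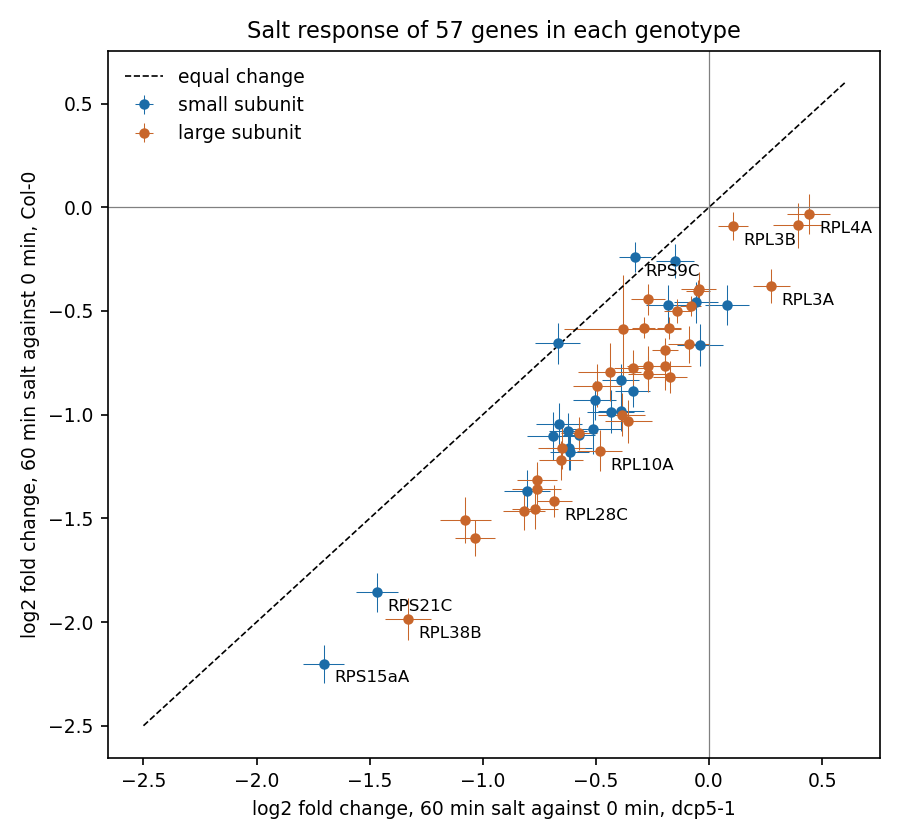
Log2 fold change after 60 min of salt in dcp5-1 (x axis) and Col-0 (y axis) for 57 genes, with bars for SE; the dashed line marks equal change. Most points lie below the line, with lower values in Col-0; RPL4A (0.44 and -0.03) is at the upper right and RPS15aA (-1.70 and -2.20) at the lower left. With quantile normalization, 11 genes in Col-0 and 17 in dcp5-1 were called higher, against 7687 and 7070 of 19876 loci.

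Genes with shorter coding sequences had lower median fold changes after salt. Among the 24 genes with coding sequences of 210 to 597 nt, the median log2 fold change was -0.62 in dcp5-1 and -1.09 in Col-0. Among the 23 of 621 to 897 nt it was -0.36 in dcp5-1 and -0.86 in Col-0. Among the 10 of 906 to 1224 nt it was -0.05 in dcp5-1 and -0.40 in Col-0. Spearman's rho between coding length and log2 fold change was 0.652 in dcp5-1 and 0.665 in Col-0 (57 genes measured in the same libraries, as a description). Other genes of like length were also called lower more often than all loci were: of 3394 nuclear coding genes with transcripts of 959 to 1342 nt, the middle range of the members, 47.2% were called lower in dcp5-1, with a median of -0.19, and 56.4% in Col-0, with a median of -0.31. After the trend with transcript length was removed in each library, 29 members were called lower and 7 higher in dcp5-1. In Col-0 45 were lower and 0 higher. Of 19876 loci, 5946 were lower and 6494 higher in dcp5-1, and 6263 and 7056 in Col-0. Removing trends with length, GC content and level together left 27 members lower and 13 higher in dcp5-1, and 35 lower and 11 higher in Col-0. Of 19876 loci, 5869 were then lower and 6332 higher in dcp5-1, and 6156 and 6879 in Col-0.

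**Figure D3:**
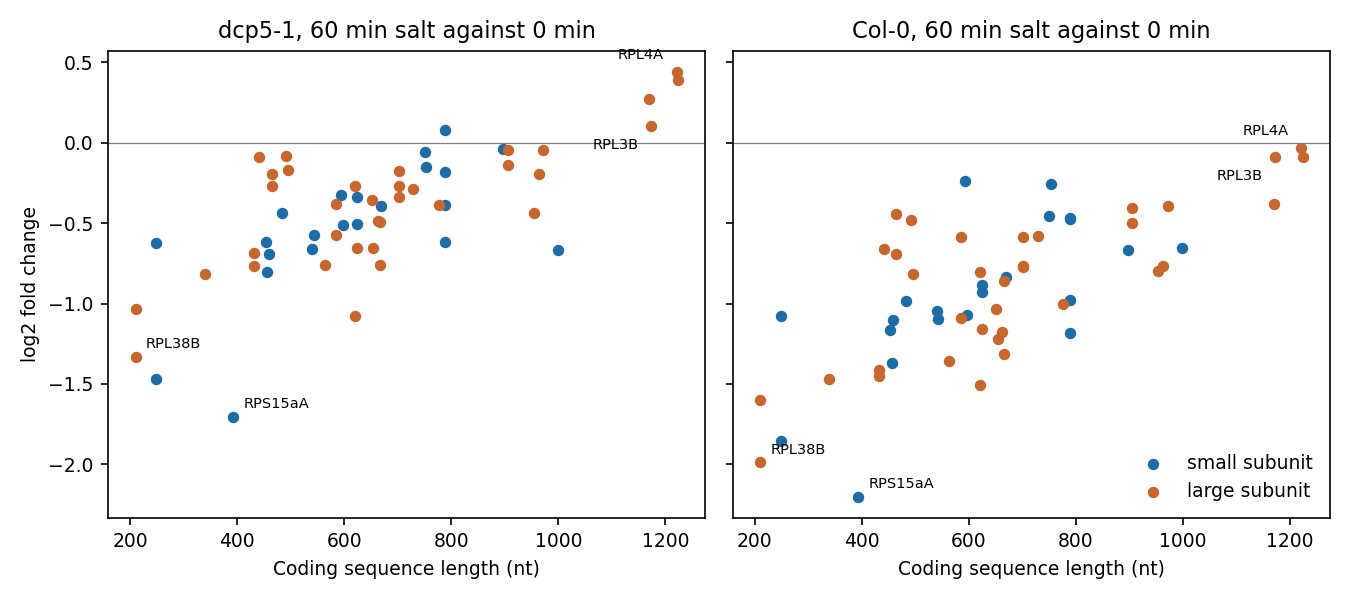
Log2 fold change after 60 min of salt (y axis) against coding sequence length in nt (x axis) for the 57 genes, dcp5-1 on the left and Col-0 on the right. The lowest values, -1.70 and -2.20, are those of RPS15aA, with a coding sequence of 393 nt in a transcript of 1653 nt, and RPL4A and RPL3B, with long coding sequences, are nearest to or above 0.

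After 60 min of salt, ribosomal protein transcripts read higher in dcp5-1 seedlings than in Col-0 seedlings: 55 of the 57 genes were higher in dcp5-1 by limma and RPL9C and RPP0B were not called. Of all loci tested, 27.1% were called higher and 27.4% lower. The median log2 difference was 0.51 (range 0.22 to 1.23) against -0.01 for all loci. All 57 values were above 0, and none reversed under the alternative scalings fitted gene by gene. Scaling to the summed FPKM of protein-coding genes was not fitted gene by gene. By that share the members' sums overlapped between genotypes at 60 min. Quantile normalization called 51 higher, against 5485 of 19876 loci. By subunit, 22 of 22 small-subunit genes were higher, with a median of 0.41, and 33 of 35 large-subunit genes, with a median of 0.55. The 3394 genes of like transcript length had a median of 0.13, with 39.4% called higher. When FPKM were summed over the listed genes of each protein, 33 of the 34 sums were higher in dcp5-1, the exception being the stalk protein P0. Expressed genes outside the list, such as AT5G59850 for S15a, were not in these sums.

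The difference at 60 min was largest for RPL3B, the minor gene of L3. It had 23.5, 23.8 and 24.4 FPKM in dcp5-1 at 60 min and 21.9, 22.5 and 22.0 in dcp5-1 at 0 min, against 8.97, 9.88 and 10.103 in Col-0 at 60 min and 9.72, 11.6 and 9.77 in Col-0 at 0 min. The dcp5-1 libraries were higher at both times, by 1.23 ± 0.07 on the log2 scale at 60 min and 1.03 ± 0.07 at 0 min (adjusted p = 1.03e-07 and 4.65e-07, limma). RPL9D (AT4G10450), the second of the listed L9 genes, had 92.3, 86.8 and 91.7 FPKM in dcp5-1 at 60 min, against 50.8, 48.6 and 44.0 in Col-0 at 60 min (0.90 ± 0.08, adjusted p = 4.24e-06, limma). RPL28C (AT4G29410) had 214, 218 and 217 FPKM in dcp5-1 at 60 min, against 112, 120 and 121 in Col-0 at 60 min (0.88 ± 0.08, adjusted p = 4.02e-06, limma). RPP0B, the main gene of the stalk base protein that binds elongation factors, had 324, 335 and 360 FPKM in dcp5-1 at 60 min, against 293, 290 and 279 in Col-0 at 60 min, a difference of 0.24 ± 0.12 that missed the threshold (adjusted p = 0.102, limma) although the libraries did not overlap.

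Before salt most of the genes were not called between genotypes. At 0 min 13 genes were higher in dcp5-1, 5 lower and 39 not called by limma, against 18.8% of all loci higher and 28.1% lower, and the members' median was 0.01 against -0.05 for all loci. These counts moved with the libraries and the scaling. Without replicate 2 of Col-0 at 0 min 22 genes were higher and 3 lower, against 3715 and 5258 of 19876 loci. Without replicate 1 of that group 13 were lower, against 5582 of 19876 loci. With quantile normalization 32 were higher and 2 lower, against 4796 and 4496 of all loci. The largest rises after RPL3B were those of RPS9C and RPL23aB. RPS9C had 39.8, 42.2 and 39.8 FPKM in dcp5-1 at 0 min, against 24.3, 21.9 and 23.8 in Col-0 at 0 min (0.77 ± 0.07, adjusted p = 6.57e-06, limma). RPL23aB (AT3G55280), whose protein sits at the mouth of the exit tunnel, had 337, 337 and 366 FPKM in dcp5-1 at 0 min, against 229, 269 and 267 in Col-0 at 0 min (0.44 ± 0.07, adjusted p = 0.000549, limma). For all 3 genes the dcp5-1 libraries were above all Col-0 libraries.

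The lower genes at 0 min were RPL10A, RPSaA, RPL38A (AT2G43460), RPP0B and RPP1A (AT1G01100). RPL10A encodes the joining-face protein L10, and a dominant allele of it suppresses the dwarf acaulis5 mutant. At 60 min it had 624, 652 and 643 FPKM in dcp5-1, against 554, 523 and 507 in Col-0. At 0 min it had 872, 891 and 922 FPKM in dcp5-1, against 1030, 1436 and 1148 in Col-0 (-0.41 ± 0.10, adjusted p = 0.00497, limma). RPSaA, homologous to the mammalian laminin receptor precursor, had 366, 385 and 360 FPKM in dcp5-1 at 0 min, against 406, 572 and 466 in Col-0 at 0 min (-0.36 ± 0.10, adjusted p = 0.0122, limma). RPL38A had 700, 699 and 782 FPKM in dcp5-1 at 0 min, against 824, 1046 and 906 in Col-0 at 0 min (-0.34 ± 0.09, adjusted p = 0.00694, limma). The seedling markers also differed at 0 min: all 6, 3 of shoot and 3 of root, were called lower in dcp5-1 by limma. The summed shoot markers read 9071 to 10411 FPKM in dcp5-1 at 0 min, against 17198 to 20489 in Col-0 at 0 min, and 4897 to 5224 in dcp5-1 at 60 min, against 4850 to 5820 in Col-0 at 60 min. The summed root markers read 118 to 135 FPKM in dcp5-1 at 0 min, against 155 to 192 in Col-0 at 0 min, and 141 to 147 in dcp5-1 at 60 min, against 168 to 183 in Col-0 at 60 min. At 60 min LHCB1.2, TIP2;3 and CASP1 were called lower in dcp5-1, LHCB4.2 and RBCS2B were not called, and the root marker PHT1;1 was called higher, with 8.24 to 8.56 FPKM in dcp5-1, against 6.64 to 7.23 in Col-0 (log2 difference 0.25, adjusted p = 0.0019, limma). No marker was at 0 in any library. Their part in the results was not tested.

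**Figure D4:**
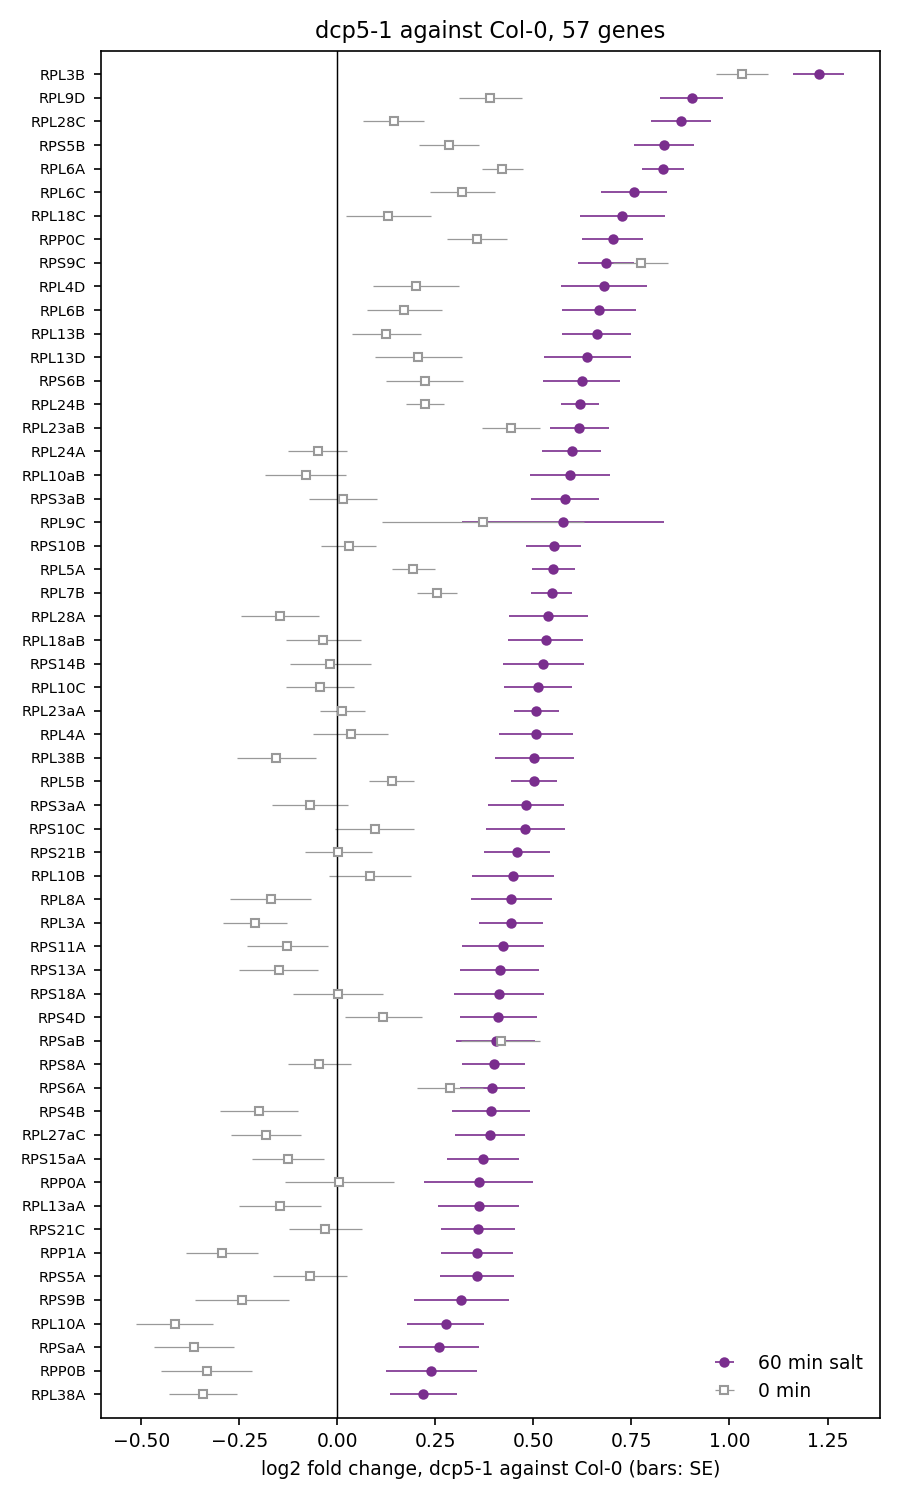
Log2 fold change, dcp5-1 against Col-0, for the 57 genes at 60 min of salt (filled circles) and at 0 min (open squares), with bars for SE, ordered by the value at 60 min. The 60 min values run from 0.22 to 1.23 and the 0 min values from -0.41 to 1.03, and RPL3B is highest at both times.

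The salt responses of the genotypes were compared directly with the interaction term, the response in dcp5-1 minus that in Col-0. It was called positive for 43 of the 57 genes and negative for 0 by limma (also 0 at an unadjusted p under 0.05), against 16.3% of all loci positive and 8.06% negative. The members' median was 0.50 (range -0.09 to 0.73) against 0.04 for all loci and 0.13 for the 3394 genes of like length. The term passed for 14 of 22 small-subunit and 29 of 35 large-subunit genes, and for 31 of the 34 proteins summed over the listed genes. The call was sensitive to scaling. With quantile normalization 14 members were positive and 1 negative, against 2033 positive and 2077 negative of 19876 loci. With length, GC and level trends removed 7 were positive and 1 negative, against 1640 and 1607 of 19876 loci. Without replicate 2 of Col-0 at 0 min, 42 genes were positive, with a median of 0.38, against 3029 of 19876 loci positive. The largest values were those of RPL28C, at 0.73 ± 0.11 (adjusted p = 0.00112, limma), RPL10A, at 0.69 ± 0.14 (adjusted p = 0.00532, limma), RPL28A, at 0.68 ± 0.14 (adjusted p = 0.00603, limma), RPL10aB (AT2G27530), at 0.67 ± 0.15 (adjusted p = 0.0076, limma) and RPL38B, at 0.66 ± 0.14 (adjusted p = 0.00768, limma). RPL28C had 214, 218 and 217 FPKM in dcp5-1 at 60 min and 343, 361 and 341 in dcp5-1 at 0 min, against 112, 120 and 121 in Col-0 at 60 min and 278, 359 and 314 in Col-0 at 0 min. RPL10aB, a second PIGGYBACK gene, had 437, 442 and 466 FPKM in dcp5-1 at 60 min and 580, 562 and 581 in dcp5-1 at 0 min, against 294, 295 and 302 in Col-0 at 60 min and 510, 742 and 592 in Col-0 at 0 min. The 14 genes not called were RPS18A (AT1G22780), RPS6A, RPS6B, RPS4D, RPS9C, RPS10C (AT5G52650), RPS21C, RPSaB, RPL10B, RPL3B, RPL9C, RPL23aB, RPL13D and RPP0A, which include 5 of the 6 genes below 50 FPKM. The salt, genotype and interaction contrasts use the same libraries, so they are not independent of each other. The salt fold changes of dcp5-1 and Col-0 share no library. Their SE and p-values do, because each gene's spread was pooled over all 12 libraries.

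Paralogues of 1 protein did not always respond alike. The 20 families gave 26 pairs with a median coding-sequence identity of 85.0% (69.9% to 94.2%), and for each pair the within-library log2 ratio of FPKM + 1, the more abundant gene over the other, was compared by an exact two-sided permutation test stratified by the other factor. The test has 400 arrangements and cannot give p below 0.005. The ratio changed with salt in 14 of 26 pairs at an adjusted p below 0.05 over the 26 pairs, rising in 7 and falling in 7. For the S21 genes, RPS21B over RPS21C (AT5G27700), the log2 ratio averaged 0.97 ± 0.13 in dcp5-1 at 60 min, 0.12 ± 0.03 in dcp5-1 at 0 min, 0.87 ± 0.0035 in Col-0 at 60 min and 0.09 ± 0.11 in Col-0 at 0 min (SD, n = 3 each), a change of 0.81 with salt (p = 0.005, adjusted p = 0.0144, exact permutation test). RPS21C had 320, 315 and 350 FPKM in dcp5-1 at 60 min and 857, 911 and 964 in dcp5-1 at 0 min. The Col-0 values were 264, 263 and 241 FPKM at 60 min and 802, 1061 and 943 at 0 min. RPS21B had 601, 686 and 646 FPKM in dcp5-1 at 60 min and 935, 1013 and 1028 in dcp5-1 at 0 min. In Col-0 libraries it read 483, 483 and 439 FPKM at 60 min and 923, 1121 and 935 at 0 min. Both genes were called lower after salt, although RPS21B was slightly above 0 in both genotypes with length, GC and level trends removed. The log2 fold change of RPS21C was -1.47 ± 0.09 in dcp5-1 and -1.86 ± 0.09 in Col-0 (adjusted p = 7.32e-08 and 7.46e-09, limma).

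The L13 and S3a families showed the same form. RPL13D (AT5G23900) had 112, 118 and 126 FPKM in dcp5-1 at 60 min and 249, 253 and 252 in dcp5-1 at 0 min. For Col-0 the table gave 74.5, 77.0 and 76.0 FPKM at 60 min and 179, 270 and 212 at 0 min. RPL13B (AT3G49010), the more abundant gene, had 427, 425 and 452 FPKM in dcp5-1 at 60 min and 528, 523 and 518 in dcp5-1 at 0 min. Col-0 had 274, 280 and 269 FPKM at 60 min and 417, 566 and 466 at 0 min. The log2 ratio of RPL13B to RPL13D was higher after salt by 0.76 (p = 0.005, adjusted p = 0.0144, exact permutation test), with separate libraries in both genotypes. RPS3aA, for a protein near the mRNA exit, had 628, 606 and 647 FPKM in dcp5-1 at 60 min and 595, 593 and 590 in dcp5-1 at 0 min. The Col-0 values were 442, 455 and 448 FPKM at 60 min and 523, 739 and 621 at 0 min. RPS3aB (AT4G34670) had 348, 355 and 369 FPKM in dcp5-1 at 60 min and 555, 560 and 531 in dcp5-1 at 0 min. In Col-0 libraries it read 246, 235 and 235 FPKM at 60 min and 474, 639 and 527 at 0 min. The RPS3aA to RPS3aB log2 ratio was higher after salt by 0.70 (p = 0.005, adjusted p = 0.0144, exact permutation test), and RPS3aA itself was not called in dcp5-1 (0.08 ± 0.10, adjusted p = 0.48, limma).

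The L38 genes, RPL38A over RPL38B, had a ratio higher after salt by 0.34 (p = 0.005, adjusted p = 0.0144, exact permutation test). RPL38A had 332, 364 and 367 FPKM in dcp5-1 at 60 min, against 293, 321 and 298 in Col-0 at 60 min.

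In the S9 family the ratio moved toward the minor gene, mainly in Col-0. RPS9B (AT5G15200), whose protein lies at the mRNA entry, had 425, 453 and 449 FPKM in dcp5-1 at 60 min and 625, 625 and 640 in dcp5-1 at 0 min. For Col-0 the table gave 355, 367 and 342 FPKM at 60 min and 595, 932 and 747 at 0 min. RPS9C had 35.4, 28.8 and 32.7 FPKM in dcp5-1 at 60 min, against 18.8, 19.6 and 20.5 in Col-0 at 60 min. The RPS9B to RPS9C log2 ratio changed by -0.51 with salt (p = 0.01, adjusted p = 0.02, exact permutation test). It changed by -0.83 in Col-0 and by -0.18 in dcp5-1, where the 60 min and 0 min libraries overlapped. The Col-0 ratio at 0 min had an SD of 0.40. With quantile normalization the change over both genotypes was near 0. Among the P0 genes, RPP0A had 2.73, 2.07 and 3.02 FPKM in dcp5-1 at 60 min and 3.84, 3.76 and 3.98 in dcp5-1 at 0 min. Col-0 had 1.83, 1.96 and 1.60 FPKM at 60 min and 2.96, 4.90 and 3.87 at 0 min. RPP0C had 28.6, 28.7 and 30.5 FPKM in dcp5-1 at 60 min and 30.0, 31.1 and 29.5 in dcp5-1 at 0 min. The Col-0 values were 18.007, 17.2 and 17.5 FPKM at 60 min and 19.96, 25.8 and 24.8 at 0 min. The log2 ratio of RPP0C to RPP0A was higher after salt by 0.40, and that of RPP0B to RPP0C was lower, at -0.26 (p = 0.005, adjusted p = 0.0144 for each, exact permutation test); the second reversed with quantile normalization.

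Between genotypes, the difference in the ratio of the paralogue with the higher mean to the other, dcp5-1 minus Col-0, was below 0 in 20 of the 26 pairs. Some pairs had near equal means, such as RPS6A and RPS6B with 475 and 468 FPKM, so their order has little meaning. It passed the test in 16 pairs, lower in 13 and higher in 3. The largest change was that of RPL3A to RPL3B, whose log2 ratio averaged 3.21 ± 0.04 in dcp5-1 at 60 min and 3.04 ± 0.05 in dcp5-1 at 0 min, against 3.99 ± 0.09 in Col-0 at 60 min and 4.28 ± 0.10 in Col-0 at 0 min (SD, n = 3 each), a difference of -1.01 (p = 0.005, adjusted p = 0.0108, exact permutation test). The ratio of RPS9B to RPS9C differed by -0.69, RPP0B to RPP0C by -0.58 and RPS5A (AT3G11940) to RPS5B (AT2G37270) by -0.42, each at the same p and adjusted p (exact permutation test). Ratios that were higher in dcp5-1 were those of RPP0C to RPP0A (0.35), RPL6A (AT1G18540) to RPL6B (AT1G74060) (0.21) and RPL6C (AT1G74050) to RPL6B (0.12), also at p = 0.005 (exact permutation test); the last reversed with length, GC and level trends removed. The pairs within the L6, L10 and P0 families share genes and are not independent.

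**Figure D5:**
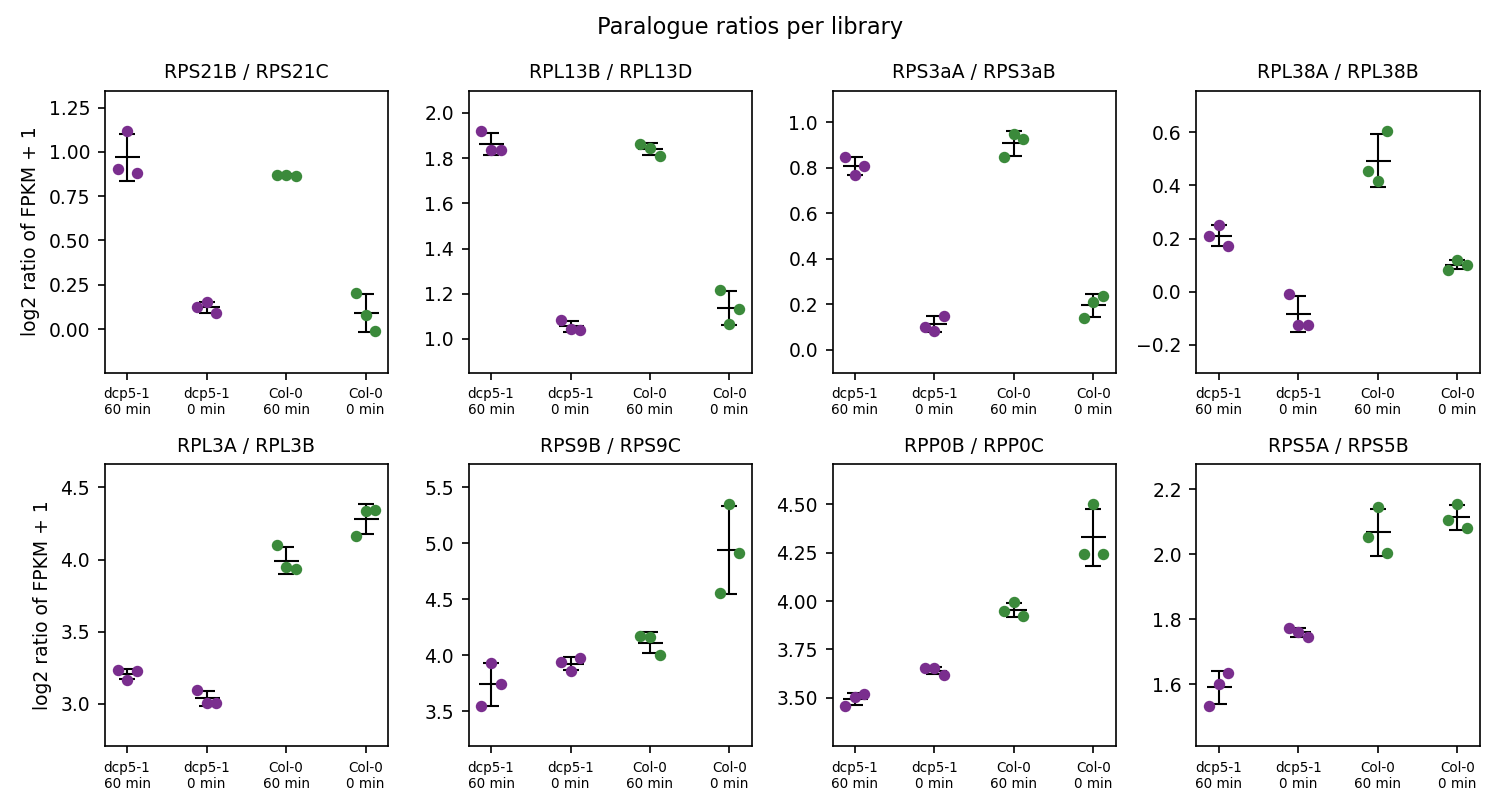
Log2 ratio of FPKM + 1 between paralogues (y axis) in each library (points), with group means and SD (bars; n = 3 per group), for 4 pairs that moved with salt (top) and 4 pairs that moved with genotype (bottom). The S3a, L38, S9, P0 and S5 pairs shown passed the test for both factors. RPS21B over RPS21C is near 0.1 at 0 min and near 0.9 at 60 min in both genotypes. RPL3A over RPL3B is lower in both dcp5-1 groups. The salt shift of the S9 ratio fell to about 0 with quantile normalization.

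Promoter letters were read for all 57 genes from the TAIR10.1 genome, over the 250 bases before the annotated gene start on both strands. Site II was searched as the letters TGGGCC only, so variants of these letters were not counted. These letters, or their reverse complement, were present in 33 of the 57, or 57.9%, against 16.7% of 18718 tested protein-coding genes. The telo box AAACCCTA, or its reverse complement, was present in 11, or 19.3%, against 3.55%. Site II matches on opposite strands can overlap, as in RPS6B and RPL18C (AT5G27850). Both were present in 12.3% of members and 1.06% of tested genes, and neither in 35.1% of members and 80.8% of tested genes. As a description, the Col-0 median after salt was -0.84 (log2) in the 33 genes with site II and -0.91 in the 24 without, and -1.07 in the 11 genes with a telo box and -0.81 in the 46 without.

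The 110 bases before the gene start are shown for the 6 members with both motifs in that stretch, and for the sister genes RPS21B, RPL38A and RPL13B, which were less lowered by salt than RPS21C, RPL38B and RPL13D. Capitals mark the site II and telo box letters that were searched, and each line reads 5′ to 3′ on the gene's strand.
RPS4B, chr5:2202254-2202363, plus strand: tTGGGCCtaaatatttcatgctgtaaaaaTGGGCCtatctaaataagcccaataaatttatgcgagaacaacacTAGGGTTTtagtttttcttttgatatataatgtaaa
RPS9B, chr5:4936430-4936539, minus strand: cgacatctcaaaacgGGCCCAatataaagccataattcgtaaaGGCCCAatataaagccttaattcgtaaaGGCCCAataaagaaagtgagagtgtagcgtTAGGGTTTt
RPS21C, chr5:9808514-9808623, minus strand: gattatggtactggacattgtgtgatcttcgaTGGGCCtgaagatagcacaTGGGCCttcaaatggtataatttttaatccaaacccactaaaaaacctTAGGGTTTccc
RPL38B, chr3:21996841-21996950, minus strand: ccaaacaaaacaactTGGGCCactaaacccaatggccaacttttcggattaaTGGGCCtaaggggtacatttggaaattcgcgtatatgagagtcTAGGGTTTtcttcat
RPL13D, chr5:8065551-8065660, minus strand: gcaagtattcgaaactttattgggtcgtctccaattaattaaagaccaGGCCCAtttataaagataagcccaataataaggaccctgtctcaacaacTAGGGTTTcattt
RPL6A, chr1:6378581-6378690, minus strand: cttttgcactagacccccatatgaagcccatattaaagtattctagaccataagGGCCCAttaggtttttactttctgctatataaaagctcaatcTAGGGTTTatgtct
RPS21B, chr3:19956450-19956559, minus strand: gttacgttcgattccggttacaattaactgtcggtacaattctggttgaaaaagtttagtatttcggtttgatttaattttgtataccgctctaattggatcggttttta
RPL38A, chr2:18047402-18047511, minus strand: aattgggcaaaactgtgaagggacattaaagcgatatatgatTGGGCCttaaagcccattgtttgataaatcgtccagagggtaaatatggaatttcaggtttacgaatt
RPL13B, chr3:18168701-18168810, minus strand: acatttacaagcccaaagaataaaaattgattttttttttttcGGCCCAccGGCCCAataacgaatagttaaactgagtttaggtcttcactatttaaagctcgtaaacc
By the letters searched, the stretch of RPS21B held neither motif, that of RPL38A held 1 site II motif and that of RPL13B held 2. RPS21C, RPL38B and RPL13D each had a telo box within 10 bases of the gene start. RPL13B also had a telo box 181 bases before its start, outside the stretch shown. These pairs were chosen after their values were seen, and RPS3aB, which was lowered more than RPS3aA, had neither motif, so a match is only a description of the letters.

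The annotation names 167 other cytosolic ribosomal protein genes. Of the 153 that passed the minimum level, 139 were lower and 1 higher after salt in dcp5-1, with a median log2 fold change of -0.63, and 147 were lower and 1 higher in Col-0, with a median of -1.10. At 60 min 138 of the 153 were higher in dcp5-1 than in Col-0 and none lower, with a median of 0.53, and at 0 min 32 were higher and 13 lower, with a median of 0.03. The interaction was positive in 115 of 153, with a median of 0.50. Their promoters held site II in 53.9% and a telo box in 21.6%.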

How the data were processed

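The deposited table holds FPKM per locus for 12 mRNA libraries, 3 in each of 4 groups named by the labels. The authors made it with Bowtie on TAIR10, per the submitters' processing notes; for quantifier, annotation, read length and strand setting the sources used here give nothing, and 13 members overlap another annotated gene. Values were analysed as log2(FPKM + 1) for 19876 loci averaging 1 FPKM or more, a scale that shrinks the changes of low genes. One linear model with 4 group means was fitted with limma 3.58.1 (R 4.3.3, trend and empirical Bayes) over all tested loci, two-sided, with Benjamini-Hochberg adjustment and a threshold of 0.05. Paralogue ratios were tested by exact permutation. The table gives no counts; whole reads were recovered within 0.1 read for 98.9% to 99.5% of low values after a length correction of 262 nt, for a depth of 14600000 to 21100000 reads, and this served to describe precision only. Promoters and lengths come from the RefSeq TAIR10.1 annotation. Scripts were tested on simulated data. Members and lists were chosen with earlier results of these data known. Genes with full values are the 5 most abundant, up to 3 largest changes a direction per contrast, 5 paralogue families with the widest salt difference, and 5 with the largest interaction. Alternatives covered pseudocount, filter, scaling, length, GC and level trends, samples in the fit, replicate number as a block, and each library left out.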

Additional observations from a re-analysis of the deposited data

Results flagged for a closer look

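The salt response differed between genotypes by the interaction term for 43 of the 57 genes (limma, adjusted p below 0.05), against 16.3% of all loci called positive, all with a smaller fall or a rise in dcp5-1. The 5 largest differences in log2 fold change, dcp5-1 minus Col-0, were 0.73 for RPL28C, 0.69 for RPL10A, 0.68 for RPL28A, 0.67 for RPL10aB and 0.66 for RPL38B. The count ran from 32 to 51 when 1 library was left out at a time, against 2407 to 3907 of 19876 loci positive. It was 14 under quantile normalization, against 2033 of 19876 loci positive. Once trends with transcript length, GC content and level had been taken out it was 7, against 1640 of 19876 loci.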

How the results depend on the processing

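The counts at 60 min between genotypes (46 to 57 genes higher in dcp5-1) stayed within 1.5 times the reported count under every alternative run. So did the paralogue pairs past the threshold, at 15 to 18 for salt and 13 to 17 for genotype under the scaling, trend and pseudocount settings. The other gene counts moved under at least 1 setting, and the cause was not tested. With quantile normalization 17 genes were called higher and 25 lower after salt in dcp5-1, and 11 higher and 35 lower in Col-0. In dcp5-1 against Col-0 at 0 min 32 were higher and 2 lower, and for the interaction 14 and 1. Of 19876 loci, that setting called 7070 higher and 6061 lower after salt in dcp5-1, and 7687 and 6382 in Col-0. It called 4796 loci higher and 4496 lower at 0 min, and 2033 and 2077 for the interaction. With length, GC and level trends removed, 13 were higher in dcp5-1 after salt, and 11 higher and 35 lower in Col-0. At 0 min 34 were higher and 1 lower, and for the interaction 7 and 1. Of 19876 loci, that setting called 6332 higher in dcp5-1, and 6879 higher and 6156 lower in Col-0. It called 4810 loci higher and 4622 lower at 0 min, and 1640 and 1607 for the interaction. With the length trend alone, 7 members were higher in dcp5-1, against 6494 of 19876 loci. Median centring, and a fit of only the libraries compared, each left 3 lower at 0 min, against 4498 and 4549 of 19876 loci. Leaving out each library in turn, the count lower after salt ran from 37 to 45 in dcp5-1, where the count higher was 3 in each fit, and from 52 to 56 in Col-0. Of 19876 loci, those fits called 5832 to 6529 lower and 6410 to 7185 higher in dcp5-1, and 6724 to 7076 lower in Col-0. At 0 min, 11 to 22 were higher and 3 to 13 lower in dcp5-1 than in Col-0, against 3188 to 3715 and 4838 to 5582 of 19876 loci. At 60 min 50 to 57 were higher, against 4720 to 5743 of 19876 loci. For the interaction 32 to 51 were positive, against 2407 to 3907 of 19876 loci. The pairs past the threshold numbered 11 to 15 for salt and 14 to 20 for genotype.

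Over all 57 genes, quantile normalization turned the sign of a value called before or after it for 18 in dcp5-1 and 17 in Col-0 after salt, 4 at 0 min and 1 for the interaction. With length, GC and level trends removed, the numbers were 13, 15, 7 and 5 in the same order, and with the length trend alone 4 in dcp5-1 and 4 in Col-0. Among genes described in full, with quantile normalization the dcp5-1 salt value was 0.10 for RPS8A and 0.12 for RPL13B, and the Col-0 salt value was 0.30 for RPS3aA, 0.020 for RPS8A, 0.46 for RPL4A, 0.39 for RPL4D and 0.23 for RPL3A. With length, GC and level trends removed, the dcp5-1 salt value was 0.042 for RPS21B, and the Col-0 salt value was 0.25 for RPS3aA, 0.026 for RPS21B, 0.31 for RPL4A and 0.24 for RPL4D. Salt differences of log2 paralogue ratios reversed to 0.16 for RPS5A/RPS5B, 0.0031 for RPS9B/RPS9C, 0.53 for RPL10A/RPL10B, 0.14 for RPL10C/RPL10B, 0.45 for RPL3A/RPL3B and 0.26 for RPP0B/RPP0C with quantile normalization. They reversed to -0.0051 for RPL6A/RPL6C and 0.20 for RPL6C/RPL6B with the length trend removed, and to 0.0305 for RPS5A/RPS5B and 0.19 for RPL6C/RPL6B with all 3 trends removed, which also gave -0.023 for the genotype difference of RPL6C/RPL6B. Same-numbered libraries of different groups correlated at r = -0.10 to 0.18, over 0.1 in 4 of 18 pairs. Differently numbered libraries ran from -0.16 to 0.15, over 0.1 in 1 of 36 pairs. Whether the numbers pair the samples cannot be told from these values. With replicate number as a block, 41 genes were lower and 3 higher in dcp5-1 and 54 lower in Col-0 after salt. That fit gave 13 higher and 5 lower at 0 min, 54 higher at 60 min, and 43 positive for the interaction. Of 19876 loci, it called 6235 lower and 6871 higher in dcp5-1 and 7075 lower in Col-0 after salt. It called 3675 loci higher and 5490 lower at 0 min, 5368 higher at 60 min, and 3117 positive for the interaction.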

Other observations

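Nuclear genes of plastid ribosomal proteins, 37 in all, were also measured. After salt 20 were lower and 5 higher in dcp5-1, with a median log2 fold change of -0.20, and 32 lower and 2 higher in Col-0, with a median of -0.69 (limma, adjusted over all loci). Before salt 27 of the 37 were lower in dcp5-1 than in Col-0 and 1 higher, with a median of -0.30. At 60 min 19 were higher and 1 lower, with a median of 0.21, and the interaction was positive for 32, with a median of 0.57. Their promoters held site II in 29.7% and a telo box in 10.8%. These genes and the cytosolic ones were measured in the same libraries, and no test compared the lists.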
